A study of Mus musculus with 6 samples.

Results

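The genes described here are 9 amino acid transporter genes of lung group 2 innate lymphoid cells (ILC2s): Slc3a2, Slc7a5, Slc7a6, Slc7a8, Slc7a1, Slc1a5, Slc1a4, Slc38a1 and Slc38a2. They were picked by gene symbol among the 55394 genes of the SMART-seq files, and each of the 9 symbols occurred once, with the mouse identifier that the annotation gives to it. All libraries came from wild type C57BL/6 mice, with 1000 sorted lung ILC2s in each. In the Abx group (3 libraries), pregnant dams had drunk a broad-spectrum antibiotics cocktail of ampicillin, metronidazole, neomycin and vancomycin from gestation day 10 to 14, and the cells came from their neonatal offspring. In the control group (Con, 3 libraries) the cells came from pups of control dams. ILC2s were sorted from single-cell suspensions of lung after removal of lineage-positive cells, with CD45, CD90.2 and CD25 as markers, and the labels give neither the sex of the pups nor how many pups went into each library.

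Amino acids cross the plasma membrane mainly through carriers, and lymphocytes raise carrier levels when they are activated and build protein. The SLC7 light chains Slc7a5, Slc7a6 and Slc7a8 reach the cell surface in a disulfide-linked complex with the heavy chain encoded by Slc3a2, known as CD98, and exchange one amino acid for another. Slc7a1 carries arginine and other cationic amino acids without a heavy chain. The SLC1 and SLC38 members take up glutamine, alanine, serine and other neutral amino acids together with sodium. Leucine and arginine that enter the cell are sensed by the mTORC1 pathway. A shortage of amino acids is sensed through the kinase encoded by Eif2ak4 and the transcription factor ATF4.

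Levels are given as FPKM, fragments per kilobase of exon scaled to the mapped fragments of the library, which is a value per length and allows levels of different genes to be compared. Total FPKM was between 420941 and 449523 in Con and between 431613 and 489262 in Abx, and since read numbers are not known, errors are those between libraries. Of the 14 ILC2 markers, 13 were at 1 FPKM or more in all 6 libraries, among them Gata3, Icos and Arg1, while Il1rl1, the receptor of IL-33, was between 0.01 and 2.94 FPKM. The summed ILC2 markers were at 2315 to 2497 FPKM in Con and 1267 to 1559 FPKM in Abx. The list went both ways. Areg, Icos, Arg1 and Calca were lower in every Abx library than in any Con library, as were 8.73% of all genes tested. Il1rl1, which was not tested, was also lower in every Abx library. Of the 13 markers tested, Il7r, Thy1, Klrg1, Il17rb, Ptprc and Bcl11b, 6 in all, had a fitted difference above 0. Ptprc was at 18.6 to 22.9 FPKM in Con and 25.4 to 45.0 FPKM in Abx. It was thus higher in every Abx library, as were 8.49% of all genes tested. The 10 B cell markers summed to 564 to 722 FPKM in Con and 1335 to 1589 FPKM in Abx. Of the 8 tested, 7 had a fitted difference above 0, and Cd79b had one below 0. Mean levels in Con and Abx were 137 and 403 FPKM for Ighm and 186 and 437 FPKM for Cd74. H2-Ab1 was at 19.9 and 145 FPKM (fitted difference 2.80, limma adjusted p = 0.0448). Ebf1 was at 0.09 FPKM or less in each library. The 10 T cell markers summed to 343 to 375 FPKM in Con and 488 to 589 FPKM in Abx. This list also went both ways. Of the 7 tested, 5 had a fitted difference above 0, and Zap70 and Trac had one below 0. The 6 NK cell markers summed to 0 to 21.7 FPKM in Con and 215 to 224 FPKM in Abx. These Abx sums were the granzyme gene Gzma alone, and Klrb1c, Prf1 and Klra8 were listed at 0 in all libraries. Hemoglobin and other erythroid markers summed to 6422 to 14823 FPKM in Con and 3166 to 8659 FPKM in Abx. The summed markers of mast cells or basophils were at 328 to 440 and 185 to 295 FPKM in Con and Abx, those of myeloid cells at 115 to 364 and 176 to 369 FPKM, of neutrophils at 2.91 to 16.2 and 0 to 75.3 FPKM (Ly6g at 0), of epithelium at 24.6 to 1158 and 55.7 to 142 FPKM (Sftpb at 0), of endothelium at 5.13 to 10.8 and 6.14 to 21.1 FPKM, and of fibroblasts at 0.53 to 0.86 and 0.58 to 2.81 FPKM. Xist was at 3.78 to 5.09 FPKM in Con and listed at 0 in all 3 Abx libraries, and the Y-linked Eif2s3y was at 0.86 FPKM or less in Con and 11.9 to 24.4 FPKM in Abx, so pup sex and antibiotic exposure cannot be told apart. The part of these differences in the results below was not tested. In such bulk libraries, fewer cells of a type and less RNA per cell cannot be told apart.

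To see which carrier genes had the highest RNA levels in the sorted neonatal ILC2s, the 9 genes were first put in order in the Con libraries. Protein, surface level and transport were not measured, so this order does not show which carriers the cells use. Slc3a2 stood far above the rest at 290 ± 12.1 FPKM (SD, n = 3), higher than 98.0% of the 10107 genes with a mean of at least 1 FPKM in Con. It held 63.2% of the FPKM of the 9 genes together. Next came Slc7a5 at 32.3 ± 8.46 FPKM, Slc1a5 at 29.3 ± 13.1 FPKM, Slc38a2 at 28.6 ± 6.40 FPKM, Slc7a1 at 25.4 ± 3.19 FPKM, Slc7a6 at 22.3 ± 1.52 FPKM, Slc7a8 at 19.9 ± 8.33 FPKM and Slc38a1 at 11.5 ± 4.20 FPKM (SD, n = 3 each). The ranges of each neighbouring pair from Slc7a5 down to Slc38a1 overlapped, so the order of neighbours is not set beyond the spread between libraries. Genes farther apart in the order did separate, with every Con value of Slc7a5 above every Con value of Slc7a6, Slc7a8 and Slc38a1, and every Con value of Slc1a5, Slc38a2, Slc7a1 and Slc7a6 above those of Slc38a1. Slc1a4 was at 0.02 to 0.03 FPKM and was the only one of the 9 under 1 FPKM in Con. In the Con libraries 8 of the 9 genes were thus at 1 FPKM or more in each library, and this number was 6, 8 and 8 in Abx libraries 1, 2 and 3. Over all genes, 8852, 8574 and 9203 were at 1 FPKM or more in Con libraries 1, 2 and 3. In Abx libraries 1, 2 and 3 these were 7074, 8193 and 7572, so fewer genes reached this level in every Abx library, with the fewest in library 1.

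**Figure D1:**
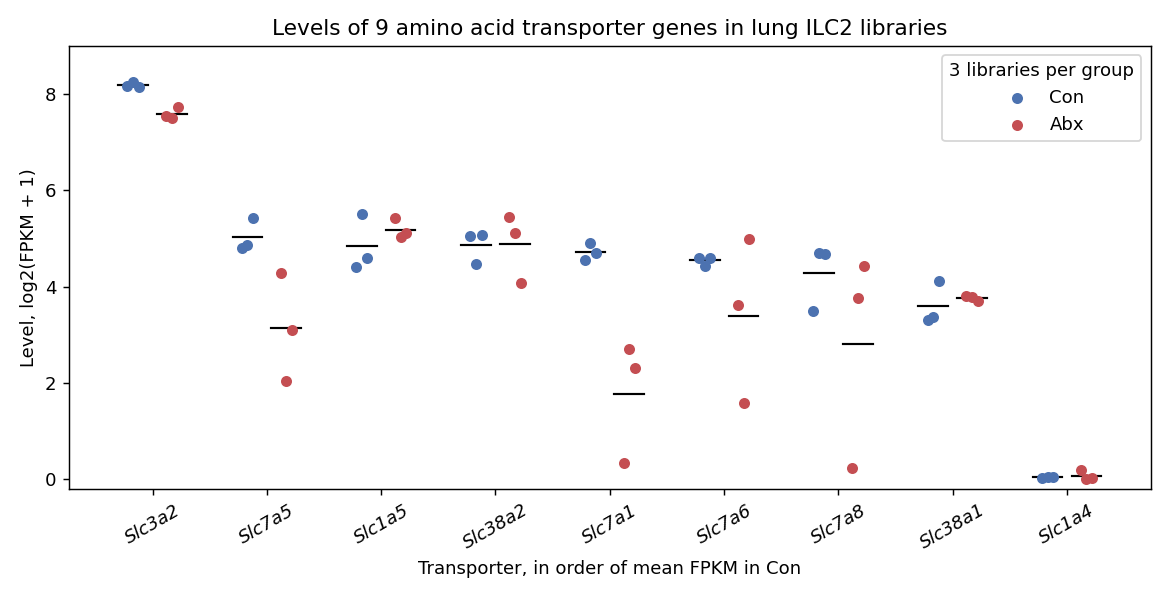
Level of each of the 9 transporter genes as log2(FPKM + 1) (vertical axis), in order of mean FPKM in Con, with 1 point per library (Con blue, Abx red, 3 each) and a black line at the group mean. The Abx points of Slc3a2, Slc7a5 and Slc7a1 all lie under the Con points, and Slc1a4 lies near 0 in all 6 libraries.

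To ask whether prenatal antibiotics were accompanied by other carrier levels, the 8 members with at least 1 FPKM in at least 3 libraries were compared in a limma fit over all 8718 genes that met the same filter, on log2(FPKM + 1). With a required fold change over 2 together with a limma adjusted p under 0.05, 0 of the 8 members were called, where 0.0574% of all genes tested were called (0.0459% higher and 0.0115% lower in Abx). At an unadjusted p under 0.05 there were 3 of 8 members, against 11.0% of all genes tested, and these 3 were Slc7a1, Slc7a5 and Slc3a2. With a fold change over 2 as well there were 2, Slc7a1 and Slc7a5, against 9.34%. The same 3 genes were lower in every Abx library than in any Con library, which 8.73% of the genes tested were, and none of the 8 was higher in every Abx library (8.49%). The median fitted difference of the 8 members was -0.87 on the log2 scale, beside -0.06 over all genes tested. It rested on single Abx libraries, since it was -0.42 without Abx library 1, -0.40 without Abx library 2 and -1.26 without Abx library 3.

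The heavy chain Slc3a2 (ENSMUSG00000010095, chromosome 19 of GRCm38 from 8706882 to 8723369, minus strand) measured 285, 304 and 281 FPKM in Con libraries 1, 2 and 3, against 185, 181 and 211 FPKM in Abx libraries 1, 2 and 3. The groups did not overlap, and the spread within each was small, with a coefficient of variation of 4.18% in Con and 8.37% in Abx. The Con mean was 1.51 times the Abx mean of 192 ± 16.1 FPKM (SD, n = 3). The fitted difference was -0.59 in log2(FPKM + 1), with a standard error of 0.19, a 95% interval of -1.02 to -0.16 and a limma adjusted p of 0.242. It ran from -0.70 to -0.55 over the 16 alternatives, and its unadjusted limma p of 0.0138 became 0.146 without the trend and 0.0529 without Con library 2. In the exact two-sided permutation test Slc3a2, like Slc7a1 and Slc7a5, had p = 0.1, the smallest that 3 libraries against 3 can give.

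Slc7a1, the cationic carrier through which cells take up arginine (ENSMUSG00000041313, chromosome 5 from 148327410 to 148399904, minus strand), had the lowest fitted difference of the 8. It measured 22.4, 28.8 and 25.0 FPKM in the Con libraries, against 0.25, 5.47 and 3.97 FPKM in the Abx libraries. All Abx values were far under all Con values, and Abx library 1 was close to 0. The Con mean was 7.87 times the Abx mean of 3.23 ± 2.69 FPKM (SD, n = 3). The fitted difference was -2.94 (standard error 0.77, 95% interval -4.74 to -1.14, limma adjusted p = 0.160), and without Abx library 1 it was -2.21 (limma adjusted p = 0.176). Over all 16 alternatives the adjusted p of Slc7a1 ran from 0.123 to 0.689.

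The promoter of Slc7a1, the gene with the lowest fitted difference, is shown with that of Slc1a4, the gene near 0 in all libraries, so that a regulatory sequence can be read beside both levels. Each run holds the 250 bases before the RefSeq start (GRCm38.p6), 5′ to 3′ on the gene's own strand, and covers no annotated exon, and capitals mark GC boxes (GGGCGG on either strand), the letters to which the SP1 factor is known to bind.
Slc1a4, chr11:20332714-20332963, minus strand: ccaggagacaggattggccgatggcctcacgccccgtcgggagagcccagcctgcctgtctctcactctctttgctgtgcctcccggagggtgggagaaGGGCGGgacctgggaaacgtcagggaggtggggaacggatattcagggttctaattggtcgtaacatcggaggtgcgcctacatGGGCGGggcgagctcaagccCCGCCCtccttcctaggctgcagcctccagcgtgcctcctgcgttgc
Slc7a1, chr5:148399905-148400154, minus strand: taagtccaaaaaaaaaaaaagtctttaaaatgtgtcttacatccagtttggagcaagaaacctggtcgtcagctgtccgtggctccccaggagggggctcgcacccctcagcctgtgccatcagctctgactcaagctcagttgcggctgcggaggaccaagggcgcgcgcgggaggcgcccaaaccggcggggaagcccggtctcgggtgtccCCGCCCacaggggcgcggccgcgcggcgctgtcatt
The Slc7a1 run held 1 GC box, with its first base 36 bases before the start, and the Slc1a4 run held 3. RefSeq promoters were matched for 6 of the 9 genes, in 8 windows, and the other 3 genes, Slc7a5, Slc1a5 and Slc38a1, had no entry. All 6 genes had a GC box in at least 1 window, where 35.4% of 27025 genes did. That share was taken over all promoters, whatever the expression of their genes, and the difference was not tested. Of the 250 bases, 169 in the Slc3a2 window, 64 in 1 Slc7a6 window, 60 in the Slc7a8 window and 2 in the Slc38a2 window lay in annotated exons. The Slc3a2 window lay inside the annotated gene. The E-box CACGTG, known for the MYC and MAX factors, was in none of the 8 windows and in 6.02% of all 32851 windows of this length. The letters TGATGNAA of the composite element that ATF4 is known for were also in none of the 8 and in 3.45% of all windows. The TATA box letters TATAAA were in the window before a second Slc7a1 start, at chr5:148392816-148393065, which lies in exons of the gene, and in 12.4% of all windows. A match describes letters only and is not a site of binding.

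Slc7a5, also called LAT1, brings in leucine and other large neutral amino acids in complex with the heavy chain (ENSMUSG00000040010, chromosome 8 from 121881150 to 121907694, minus strand). It measured 26.8, 28.1 and 42.1 FPKM in the Con libraries, against 18.3, 3.13 and 7.60 FPKM in the Abx libraries. The groups did not overlap, although Abx library 1 lay much nearer to Con than Abx libraries 2 and 3. The Con mean was 3.34 times the Abx mean of 9.68 ± 7.80 FPKM (SD, n = 3), with a fitted difference of -1.89 (standard error 0.64, 95% interval -3.38 to -0.40, limma adjusted p = 0.286). Without Abx library 2 the fitted difference was -1.34, and over the 16 alternatives it ran from -2.45 to -1.34. Its unadjusted limma p of 0.0195 became 0.0812 without Con library 3.

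The other light chains did not separate the groups. Slc7a6, or y+LAT2, which exchanges cationic against neutral amino acids (ENSMUSG00000031904, chromosome 8 from 106168857 to 106198706, plus strand), measured 23.2, 20.6 and 23.2 FPKM in Con, against 11.2, 1.98 and 30.5 FPKM in Abx. The Con libraries lay close together, and the Abx libraries lay both above and below them. Slc7a8, or LAT2, an exchanger of large and small neutral amino acids (ENSMUSG00000022180, chromosome 14 from 54722209 to 54781946, minus strand), measured 10.3, 24.9 and 24.5 FPKM in Con, against 0.17, 12.6 and 20.6 FPKM in Abx. Here Abx library 1 was near 0, and the other Abx values lay within the Con range. The fitted difference was -1.16 for Slc7a6 (standard error 0.84, 95% interval -3.10 to 0.79, limma adjusted p = 0.695) and -1.48 for Slc7a8 (standard error 1.11, 95% interval -4.06 to 1.10, limma adjusted p = 0.705). Both moved with single Abx libraries in either direction. Slc7a6 was at -0.25 without Abx library 2 and at -1.95 without Abx library 3 (limma adjusted p = 0.278, unadjusted p under 0.05), and Slc7a8 was at -0.19 without Abx library 1 and at -2.29 without Abx library 3 (limma adjusted p = 0.418).

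The makeup of the light chains differed more between Abx libraries than between Con libraries. Slc7a5 was the most abundant of the 3 light chains in each Con library, with 44.5%, 38.1% and 46.8% of their summed FPKM in Con libraries 1, 2 and 3. In Abx library 1 it was again Slc7a5 that led, with 61.7%, whereas Slc7a8 led in Abx library 2 with 71.1% and Slc7a6 in Abx library 3 with 52.0%. The 3 light chains together summed to 60.3, 73.5 and 89.8 FPKM in Con and to 29.7, 17.7 and 58.7 FPKM in Abx, so that every Abx sum was under every Con sum. The heavy chain was 4.72, 4.13 and 3.13 times this sum in Con and 6.22, 10.3 and 3.59 times in Abx, and these ratios overlapped. The further light chains that pair with CD98, Slc7a7, Slc7a10 and Slc7a11, summed to 0.03 to 4.32 FPKM over the 6 libraries, nearly all of it Slc7a7 in Con library 1. These sums and ratios were chosen after the values were seen and carry no test.

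**Figure D2:**
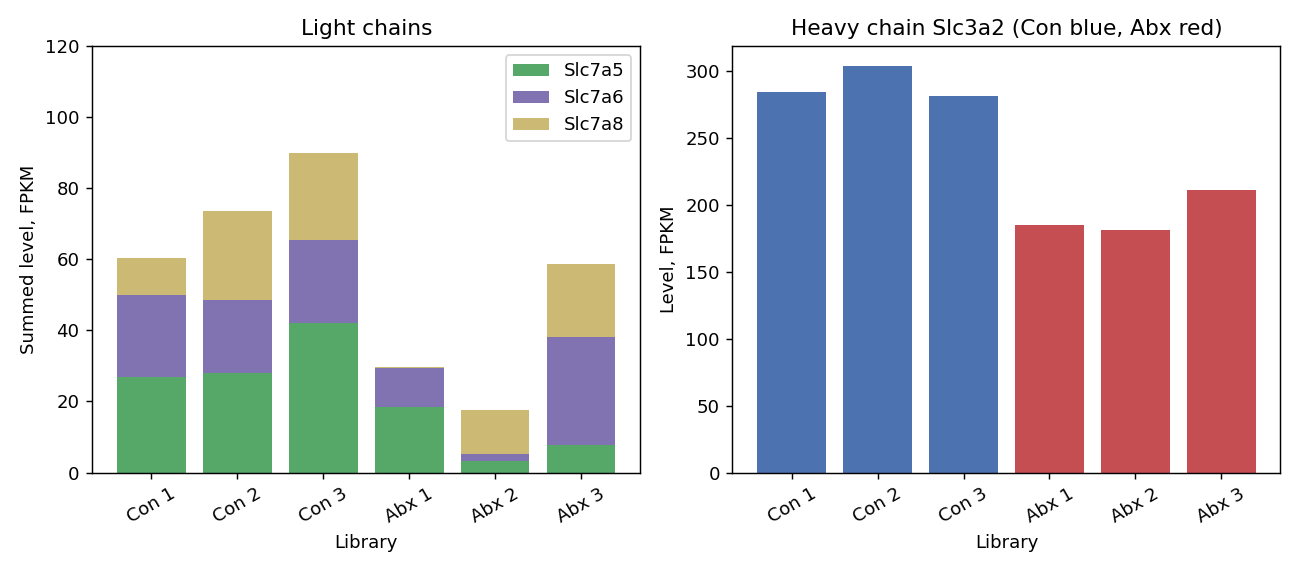
Left, FPKM of the light chains Slc7a5, Slc7a6 and Slc7a8 stacked for each of the 6 libraries. Right, FPKM of the heavy chain Slc3a2 in the same libraries (Con blue, Abx red). The stacks reach 60.3 to 89.8 FPKM in Con and 17.7 to 58.7 FPKM in Abx, with a different leading light chain in each Abx library, while Slc3a2 is even within each group.

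The groups overlapped for each of the sodium-coupled members that were tested. Slc1a5, or ASCT2, a main carrier of glutamine in dividing cells (ENSMUSG00000001918, chromosome 7 from 16781340 to 16798274, plus strand), measured 20.2, 44.3 and 23.3 FPKM in Con, against 41.7, 31.5 and 33.5 FPKM in Abx. The Abx values lay within the Con range, and the fitted difference was 0.35 (standard error 0.41, 95% interval -0.60 to 1.29, limma adjusted p = 0.820). Slc38a1, a sodium-coupled carrier of glutamine (ENSMUSG00000023169, chromosome 15 from 96571418 to 96642913, minus strand), measured 8.91, 9.29 and 16.4 FPKM in Con, against 13.02, 12.8 and 12.0 FPKM in Abx. Its fitted difference was 0.17 (standard error 0.51, 95% interval -1.03 to 1.36, limma adjusted p = 0.935), and the Abx values again lay within the Con range. Slc38a2, the system A carrier known to respond to amino acid shortage (ENSMUSG00000022462, chromosome 15 from 96687392 to 96699730, minus strand), measured 31.9, 21.2 and 32.6 FPKM in Con, against 42.5, 33.4 and 15.9 FPKM in Abx. Its fitted difference was 0.01 (standard error 0.46, 95% interval -1.06 to 1.09, limma adjusted p = 0.995), with Abx values on both sides of Con, and the sign turned under other scalings. The intervals of Slc38a1 and Slc38a2 reach past a doubling in either direction, so a difference of that size is not excluded by these libraries.

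Slc1a4, or ASCT1, a carrier of alanine, serine and cysteine (ENSMUSG00000020142, chromosome 11 from 20302180 to 20332713, minus strand), measured 0.02, 0.03 and 0.03 FPKM in Con, against 0.13, 0 and 0.02 FPKM in Abx. It was under the filter and was left out of the fit, and the exact two-sided permutation test gave p = 1. Within libraries, Slc1a5 was 0.754, 1.58 and 0.554 times Slc7a5 in Con and 2.28, 10.1 and 4.41 times Slc7a5 in Abx. Each Abx ratio was above each Con ratio, and this ratio, chosen after the values were seen, does not depend on the scaling between libraries. All 5 members tested from the SLC3 and SLC7 families had a fitted difference below 0, and all 3 from the SLC1 and SLC38 families had one above 0, except that Slc38a2 was below 0 in 5 of 16 alternatives. Over all genes tested 53.0% had a fitted difference below 0, and the families were not tested against each other.

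**Figure D3:**
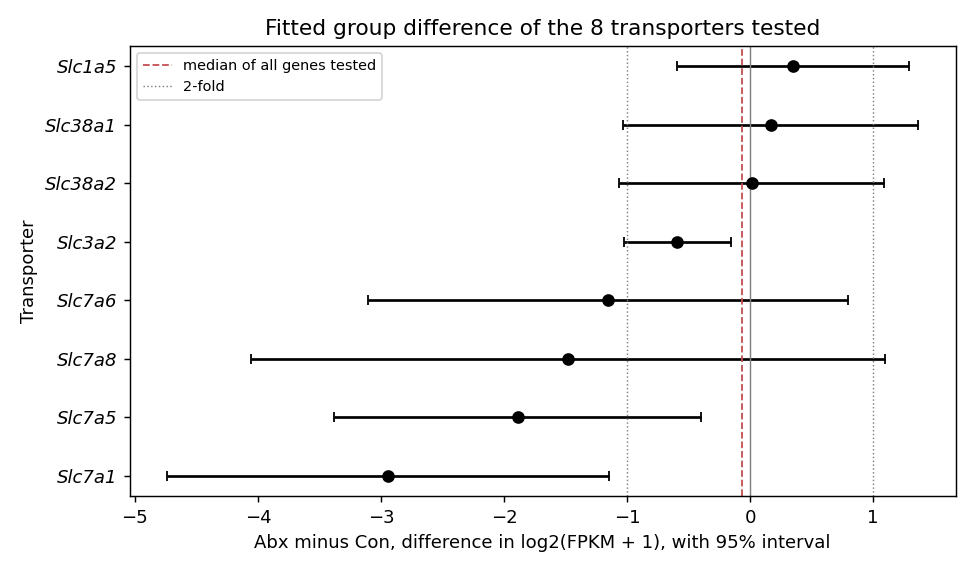
Fitted difference, Abx minus Con, in log2(FPKM + 1) for the 8 transporters tested, with 95% intervals from limma, dotted lines at a fold change of 2 and a dashed red line at the median of all 8718 genes tested (-0.06). The intervals of Slc7a1, Slc7a5 and Slc3a2 lie below 0 before adjustment over genes, and the other 5 cross it.

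The coefficient of variation between libraries was larger in Abx for 6 of the 8 members tested, as it was for 70.0% of all genes tested. For Slc7a1 and Slc7a5, whose means were lower in Abx, the SD itself was not larger there. It was 3.19 FPKM in Con and 2.69 FPKM in Abx for Slc7a1, and 8.46 and 7.80 FPKM for Slc7a5. The largest contrasts were in Slc7a6, with a coefficient of variation of 6.80% in Con and 99.99% in Abx, and in Slc7a1, with 12.5% and 83.2%. Slc1a5 and Slc38a1 went the other way, with 44.7% and 36.5% in Con beside only 15.2% and 4.35% in Abx. The genes most like Slc3a2 over the 6 libraries, among 4201 genes with a mean of at least 10 FPKM, were Zswim7, Zgrf1 and Dcaf11, with Pearson's r of 0.99, 0.99 and 0.98 of log2(FPKM + 1). Those most like Slc7a5 were Gm15801, Gtf3a and Igf1r, the receptor of insulin-like growth factor 1, each with r of 0.98. All 6 were lower in every Abx library than in any Con library, so these correlations hold the difference between the groups. Among the members themselves the highest r was 0.90, between Slc3a2 and Slc7a1, and r between Slc3a2 and Slc7a5 was 0.79.

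The other genes of amino acid transport, sensing and use were taken from 6 lists of 132 genes, of which 129 were found and 71 could be tested. Among these 71 none was called in either direction, 5 were higher and 4 lower in Abx at an unadjusted p under 0.05, against 11.0% of all genes tested. In every Abx library 7 of the 71 were higher than in any Con library, against 8.49% of all genes tested. Another 6 were lower in every Abx library, against 8.73%. Of 26 genes listed as other plasma membrane transporters only 3 passed the filter, Slc38a10, Slc6a6, a taurine carrier, and Slc16a10, a carrier of aromatic amino acids. Where in the cell their products act was not measured, so the list name does not place Slc38a10 at the surface. Slc38a10 measured 29.99, 9.72 and 20.6 FPKM in Con, against 23.3, 3.38 and 29.1 FPKM in Abx, and none of the 3 had an unadjusted p under 0.05. Slc16a10 was low in both groups, at 2.00, 2.81 and 2.71 FPKM in Con, against 4.29, 3.49 and 3.04 FPKM in Abx (fitted difference 0.39, limma adjusted p = 0.871). Slc3a1, the other heavy chain, was listed at 0 in all libraries. Of the 8 lysosomal transporters 3 passed, the cystine carrier Ctns, Slc38a7 and Slc15a4, each with a library near 0 in both groups or in Abx, and 0 had an unadjusted p under 0.05.

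Of 36 genes of mTORC1 and its amino acid sensing, 20 were tested, with 9 fitted differences above 0 and 11 below and a median of -0.15. Lamtor5, a subunit of the complex that anchors mTORC1 at the lysosome, measured 120, 146 and 131 FPKM in Con, against 164, 233 and 212 FPKM in Abx (fitted difference 0.60, standard error 0.23, limma adjusted p = 0.359). Deptor, which binds and inhibits mTOR, measured 3.29, 4.87 and 4.56 FPKM in Con, against 0.11, 0.20 and 0.06 FPKM in Abx (fitted difference -2.21, limma adjusted p = 0.108). In both the groups did not overlap. They were the 1 higher and the 1 lower of the 20 tested, where 8.49% and 8.73% of all genes tested were so. Lamtor2 measured 104, 80.4 and 103 FPKM in Con, against 155, 93.3 and 120 FPKM in Abx, and Sec13 73.7, 73.0 and 35.7 FPKM in Con, against 0.51, 50.8 and 86.2 FPKM in Abx, and in these the groups overlapped.

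The list of the response to amino acid shortage had 12 genes tested, 6 above 0 and 6 below, with a median of -0.12. Atf4 itself measured 102, 102 and 102 FPKM in Con, against 158, 11.7 and 59.4 FPKM in Abx (fitted difference -1.06, limma adjusted p = 0.708), so that the Con libraries were nearly equal and the Abx libraries scattered around them. Its known target Ppp1r15a measured 781, 1461 and 1258 FPKM in Con, against 672, 486 and 823 FPKM in Abx (fitted difference -0.80, limma adjusted p = 0.335). Among enzymes, Phgdh of serine synthesis measured 28.5, 101 and 61.8 FPKM in Con, against 117, 122 and 191 FPKM in Abx (fitted difference 1.29, limma adjusted p = 0.326), and Shmt2, which uses serine in mitochondria, 53.2, 38.0 and 49.6 FPKM in Con, against 98.9, 77.6 and 129 FPKM in Abx (fitted difference 1.08, limma adjusted p = 0.182). Aldh18a1 of proline synthesis measured 26.2, 6.09 and 14.4 FPKM in Con, against 0.30, 0.07 and 0.06 FPKM in Abx (fitted difference -3.66, limma adjusted p = 0.0967). Neither the higher nor the lower genes of this list passed the adjusted test.

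All 19 aminoacyl-tRNA synthetases in the files passed the filter, with 11 fitted differences above 0, 8 below and a median of 0.07. Dars measured 35.0, 34.5 and 36.3 FPKM in Con, against 80.3, 38.7 and 55.5 FPKM in Abx (fitted difference 0.64, limma adjusted p = 0.575), and Iars 0.08, 0.12 and 0.10 FPKM in Con, against 15.2, 1.81 and 8.86 FPKM in Abx (fitted difference 2.80, limma adjusted p = 0.177). In both the Abx values lay above Con. They were the 2 of 19 synthetases that were higher in every Abx library, against 8.49% of all genes tested. Another 1 of the 19 was lower in every Abx library, against 8.73%. Farsb and Gars, the others with the highest means, were at 24.3 to 64.8 FPKM over all libraries, and their groups overlapped. Of 20 enzymes that use amino acids 14 were tested, with 4 fitted differences above 0, 10 below and a median of -0.51. Arg1, an arginase that breaks down arginine, measured 675, 577 and 638 FPKM in Con, against 525, 411 and 377 FPKM in Abx (fitted difference -0.54, standard error 0.19, limma adjusted p = 0.330). Srm, the spermidine synthase, measured 67.9, 70.5 and 28.8 FPKM in Con, against 116, 98.8 and 123 FPKM in Abx (fitted difference 1.10, limma adjusted p = 0.305). Arg1 was thus lower and Srm higher in every Abx library than in any Con library. They are among the 6 lower and 7 higher of the 71 related genes tested. Sat1, of polyamine breakdown, was at 74.6 to 91.5 FPKM in Con, against 75.1 to 116 FPKM in Abx.

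**Figure D4:**
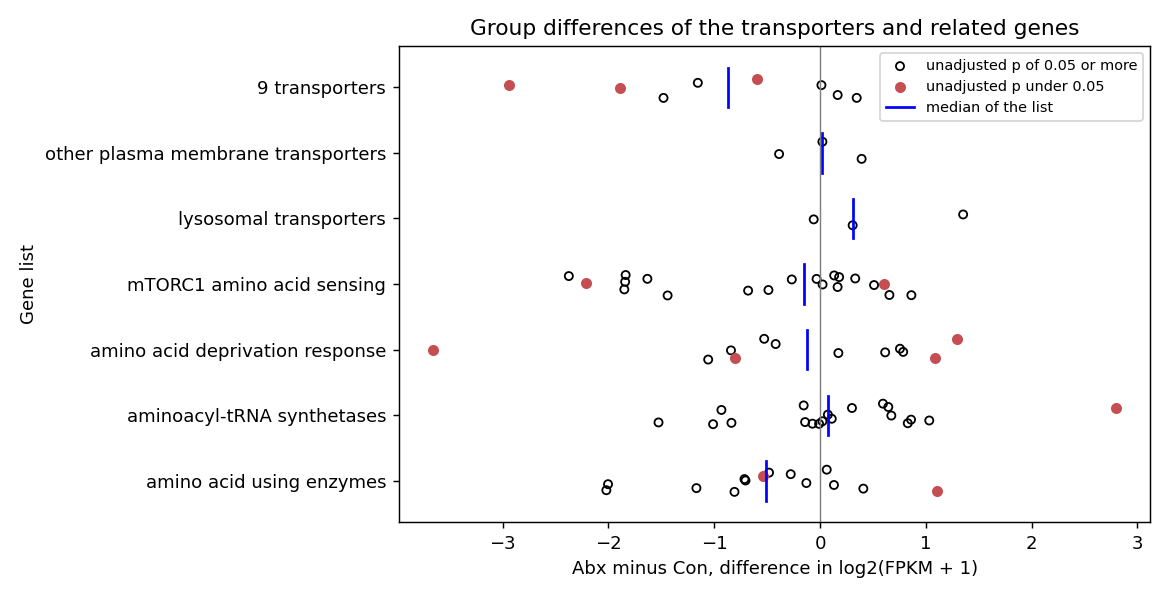
Fitted difference, Abx minus Con, in log2(FPKM + 1) (horizontal axis) of each gene tested in the 9 transporters and 6 related lists, with filled red points at an unadjusted p under 0.05 and a blue line at the median of each list. The transporters have their median at -0.87, and the medians of the related lists lie between -0.51 and 0.31.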

How the data were processed

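SMART-seq was run on 3 Con and 3 Abx libraries, grouped by the sample labels. The authors removed adapters with Cutadapt, mapped with HISAT2, assembled with StringTie and deposited 1 FPKM value per gene and library. Their methods name a human Ensembl release, while the identifiers are mouse, and the labels' processing notes name Bowtie 0.12.2, mm8 and mm9. Of 55394 identifiers, 55134 are in GENCODE M21 (GRCm38), the source of the coordinates. FPKM of repeat-prone or overlapping genes depends on how reads were assigned, which is not given in the sources used here. With exon lengths from GENCODE M21, low values were not found on whole-read steps. At the best of many trial depths, 26.5% to 30.7% lay within 0.1 of a whole read. The share by chance at a single depth is 20.0%, so it is not a like comparison for the best depth. Other gene lengths were not tried, so steps at such lengths are not excluded. Counts were thus not recovered, and the DESeq2 step of the authors was not repeated.

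The 8718 genes that reached 1 FPKM in 3 or more of the 6 libraries were fitted as log2(FPKM + 1) with limma 3.58.1 (R 4.3.3; lmFit, eBayes with trend), two-sided, with Benjamini-Hochberg adjustment over all genes tested. The fit was also run on simulated data with normal noise, and only the sign and bias of the planted changes were checked. Single libraries that drop to near 0 were not simulated, so that check does not cover them. Differences understate changes of low genes because of the pseudocount. A gene was called when its fold change was over 2 with an adjusted p under 0.05. Nothing states that the libraries came from separate litters, so p-values measure the spread between these libraries. The 9 genes, the related and marker lists, and the alternatives were chosen with earlier results of these data known, and the promoter motifs were chosen after the values. From each related list, genes called, the 3 with the highest mean, the 2 with the smallest p and those with an unadjusted p under 0.05 were named, the last added after the values were seen, and not all are given values. Likeness was Pearson's r to Slc3a2 and Slc7a5.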

Additional observations from a re-analysis of the deposited data

How the results depend on the processing

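No transporter passed the thresholds in the main fit or in any alternative except the unadjusted p, with which 2 of the 8 transporters and 6 genes of the related lists passed. The alternatives were other pseudocounts (0.1 and 0.01), filters, scalings and variance models, the removal of single libraries, and a replicate block. Over all genes, 5 were called in the main fit, 59 without the trend, 7 with the mean of at least 5 FPKM or with quantile normalization, and 0 with either other pseudocount, no filter, median centring, TPM scaling or the replicate block. With 1 library left out, 0 to 2 were called. The median difference of the transporters was -0.59 with no filter, where Slc1a4 also entered, and ran from -1.26 to -0.40 with 1 library left out. The median of all genes moved from -0.06 to -0.17 with TPM scaling or a pseudocount of 0.01. Slc38a2 turned to -0.15 with quantile normalization and -0.068 with TPM scaling, and ran from -0.27 to 0.41 with 1 library left out. The cause was not tested. The other 7 transporters kept their sign in all 16 alternatives. Libraries with the same number did not deviate together (r = -0.02, -0.03 and 0.01 across genes), so they were not paired, and under the replicate block 0 transporters were called, with the adjusted p of Slc7a1 at 0.296 and of Slc3a2 at 0.507. Read depth is unknown, so values near 0 in 1 library cannot be weighed by counts.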

Other observations

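Several carriers outside the 9 genes were seen in 1 library only. Slc38a5, a glutamine carrier, was at 11.5 FPKM in Con library 2 and listed at 0 in the other 5 libraries. Slc43a1, a carrier of large neutral amino acids, was at 7.77 FPKM in Abx library 1 and at 0.01 FPKM or less elsewhere, and Slc7a7 was at 4.21 FPKM in Con library 1 and at 0.05 FPKM or less elsewhere. The cystine carrier Ctns, at 15.3 FPKM in Con library 2 and at 19.3 and 12.7 FPKM in Abx libraries 2 and 3, was at 0.02 FPKM or less in the other 3 libraries. Slc7a11, the light chain that imports cystine, was at 0.03 to 0.12 FPKM throughout.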
